A study of Homo sapiens with 21 samples.

Results

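HepG2 cells, a widely used line from a human liver cancer, were compared after 6 h in 10 µM caffeine and after 6 h without caffeine. The comparison takes 6 of the 21 samples of the series, 3 at 10 µM and 3 at 0 µM, which the series text calls biological replicates. All groups were washed and held in serum-free medium, so the controls share the serum withdrawal. The remaining doses were 0.01, 0.1, 1, 100 and 1000 µM with 3 samples each, and the 9 samples at 0.01, 0.1 and 1 µM are called the trace doses here. For each gene class that moved at 10 µM, the levels at the trace doses are given beside those of the controls and of 10 µM. Another compound is given for the controls in 1 text of the series, but their titles give caffeine at 0 µM, and the titles were followed.

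Caffeine is a methylxanthine. It blocks adenosine receptors, which signal through cyclic AMP, and at high concentrations it inhibits cyclic nucleotide phosphodiesterases, the enzymes that break cyclic AMP down. The liver clears caffeine through cytochrome P450 enzymes of the CYP1 family, whose genes are controlled by the aryl hydrocarbon receptor (AHR), a ligand-activated transcription factor. HepG2 cells keep many hepatocyte functions, such as secretion of plasma proteins and lipoproteins, and divide in culture.

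RNA was enriched with poly(dT) beads and sequenced, which gave total counts of 30849119 to 31740966 for the control libraries and 32378284 to 35577169 for those at 10 µM. Transcripts of the mitochondrial genome took 6.94% to 7.86% of counts in the controls, 6.48% to 11.3% at 10 µM and 4.95% to 14.2% at the trace doses. All 15 defining hepatocyte genes were expressed, with a summed level of 32600 to 35760 CPM (counts scaled to library size, as edgeR gives them) in the controls and 31740 to 33530 CPM at 10 µM. Of 8 blood cell markers, PTPRC and CD3E had at most 3 counts in every library. The list summed to 1212 to 1430 CPM in the controls and 1010 to 1155 CPM at 10 µM, nearly all of it from LYZ (1248 ± 106 CPM at 0 µM, 961 ± 94.2 CPM at 10 µM, mean ± SD, n = 3, as for all such pairs of values below). Of 8 stroma and endothelium markers, COL1A2, COL3A1, DCN and LUM had at most 3 counts throughout, and the list summed to 4.18 to 4.82 CPM in the controls and 5.00 to 5.29 CPM at 10 µM. The part of these markers in the results was not tested.

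At 10 µM, 3839 of 17468 tested genes (22.0%) differed from 0 µM at an adjusted p of 0.05, 1975 higher (11.3%) and 1864 lower (10.7%), in the quasi-likelihood test of edgeR (Benjamini-Hochberg). A gene is called higher or lower below when it passed this test. For 45.8% of all tested genes the 10 µM and control libraries did not overlap. NDUFB11, NDUFC1, CEMIP, ASH1L, ARID2, MED1, AFP, POLE4, ZACN, ASDURF and RSC1A1 were picked among such genes. Their lack of overlap below follows from that choice and is a description. Between 47.2% (proteasome) and 62.8% (respiratory chain) of tested genes for the respiratory chain, both ribosomes and the proteasome were called lower, whereas 86.5% of genes for large chromatin regulators were called higher. The chromatin list was picked for long transcripts. Of all tested genes with a transcript over 8000 bases, 42.8% were called higher. The same 3 control libraries served the trace doses. Pooled, the 9 trace libraries differed from 0 µM in 1538 genes (8.8%), 864 higher (4.95%) and 674 lower (3.86%). Between 10 µM and the pooled trace doses 0 genes passed in edgeR's quasi-likelihood test, with 1489 (8.52%) at an unadjusted p under 0.05, 4.33% higher, and DESeq2 called 9. Single libraries moved these counts: the 3839 genes became 1260 without 0 µM replicate 1, 2056 without 0 µM replicate 2, 1429 without 10 µM replicate 1 and 1840 without 10 µM replicate 2. The 1538 genes became 0 without 0 µM replicate 1 or replicate 2, 765 and 741 without 0.1 µM replicates 1 and 2, 2686 without 0.1 µM replicate 3 and 665 without 1 µM replicate 2. Taken dose by dose against 0 µM, 0.01 µM gave 864 calls (4.95%), and 0.1 and 1 µM gave 0 each.

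**Figure D1:**
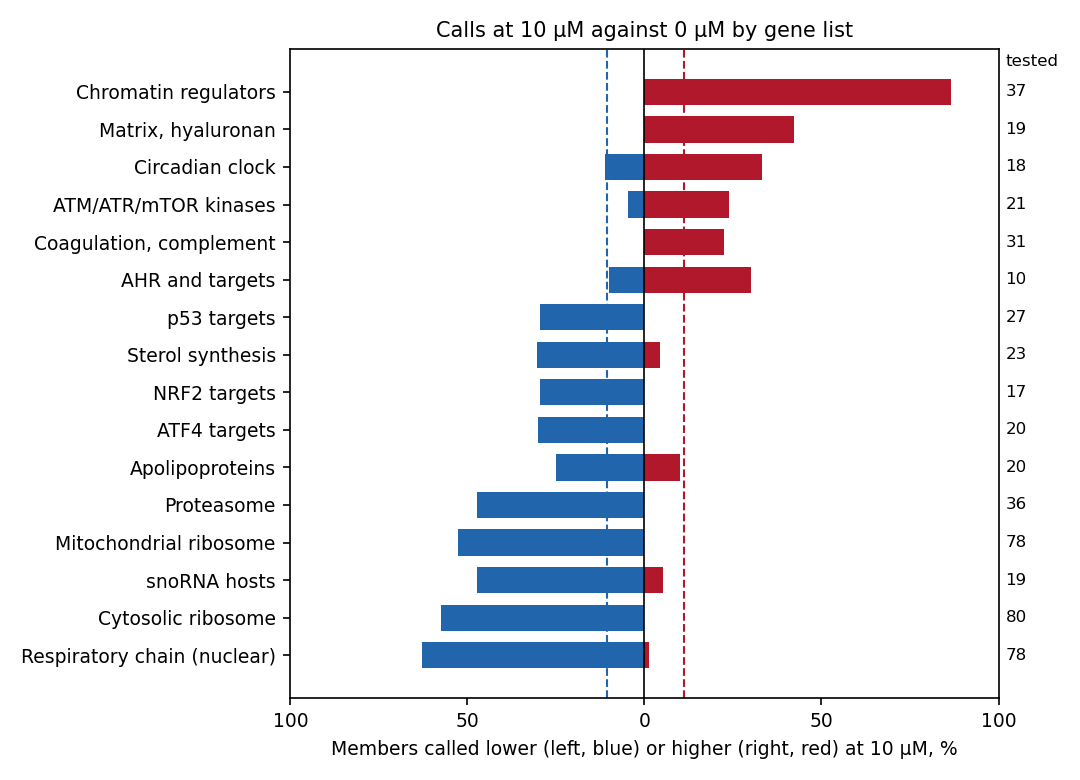
Share of tested members of 16 gene lists called lower (blue, to the left) or higher (red, to the right) at 10 µM against 0 µM, in percent, with the number tested at the right and dashed lines at the shares over all tested genes (10.7% lower, 11.3% higher). Chromatin regulators, a list picked for long transcripts, reach 86.5% higher, and nuclear respiratory chain genes 62.8% lower.

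The calls at 10 µM followed the length of the transcript. Of 878 tested genes with a transcript over 8000 bases, 42.8% were called higher and 2.62% lower, with a median log2 fold change of 0.35. Of 1774 genes under 1000 bases, 3.49% were higher and 21.4% lower, with a median of -0.30. In each library a slope was taken of the log2 level, relative to the mean of all libraries, on the log2 of transcript length. It was -0.14, -0.14 and -0.09 per doubling of length in the 3 controls and 0.03, 0.03 and 0.05 at 10 µM, so the groups did not overlap. Among the trace libraries it ran from -0.09 in 0.1 µM replicate 3, within the range of the controls, to 0.05 in 0.1 µM replicate 2. The median transcript had 1022.5 to 1579.5 bases in the lists of the respiratory chain, both ribosomes and the proteasome. It had 9311 bases in the chromatin list and 2673 over all genes. Some lists described as lower, such as p53 targets (2579) and cholesterol synthesis (2747), were close to all genes. The count of each list below is also given after a correction for length and GC content, which was chosen after seeing the data. With it 3540 genes were called (20.3%), 1800 higher (10.3%) and 1740 lower (9.96%). What produced the length pattern was not tested.

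**Figure D2:**
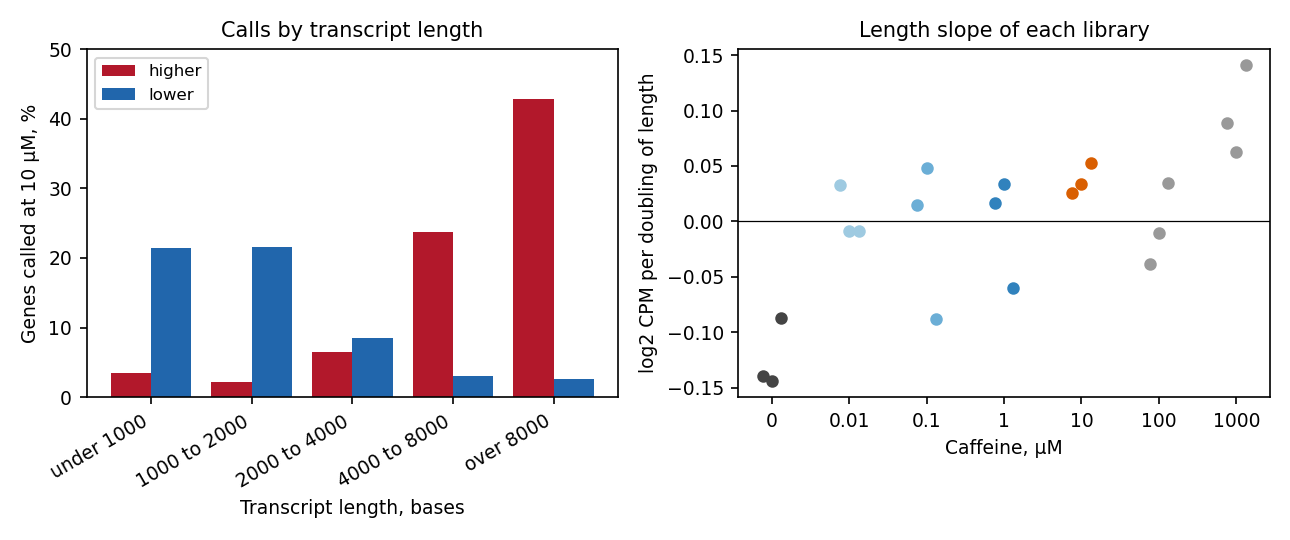
Left, share of genes called higher (red) or lower (blue) at 10 µM against 0 µM in 5 classes of transcript length in bases. Right, slope of log2 CPM per doubling of transcript length for each of the 21 libraries against the caffeine concentration in µM, with the controls between -0.14 and -0.09 and the 10 µM libraries between 0.03 and 0.05.

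The nuclear genes of the respiratory chain and the ATP synthase were lower at 10 µM. These complexes of the inner mitochondrial membrane pass electrons from NADH and succinate to oxygen and use the proton gradient to make ATP. Of 78 tested members, 49 were called lower and 1 higher, with a median log2 fold change of -0.62, where over all genes the median was -0.01. After correction for length and GC content 36 were lower and 1 higher. By complex, 24 of 37 genes of complex I, the NADH dehydrogenase, were lower, and so were 6 of 10 of complex III, 6 of 10 of complex IV and 12 of 17 of complex V, the ATP synthase. Of 4 genes of complex II, 1 was lower, and SDHA, its flavoprotein subunit, was the single gene called higher (44.0 ± 11.2 CPM at 0 µM and 70.0 ± 14.8 CPM at 10 µM). SDHA kept its call in only 1 of the 6 fits that left out a library, the fit without 0 µM replicate 1. The 15 tested genes of the mitochondrial genome gave 0 calls, at a median of 0.13.

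NDUFB11, a membrane subunit of complex I, was at 55.3, 64.7 and 48.2 CPM in the controls and at 30.6, 31.2 and 31.1 CPM at 10 µM. All 3 treated libraries lay below the lowest control, a log2 fold change of -0.86 ± 0.13 (SE, edgeR adjusted p 0.0036). The trace libraries ran from 33.8 to 47.5 CPM with a median of 36.6 CPM, and 7 of 9 were nearer to 10 µM. NDUFC1, another accessory subunit of complex I, fell from 37.9 ± 6.12 to 18.8 ± 1.53 CPM, with a trace median of 23.9 CPM. ATP5PD, a subunit of the stalk of the ATP synthase, was at 109, 111 and 91.9 CPM in the controls and 58.2, 61.5 and 58.2 CPM at 10 µM. Its groups did not overlap, and 7 of 9 trace libraries were nearer to 10 µM.

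NRF1 is a transcription factor known to control many nuclear genes of the respiratory chain, and its motif was therefore searched in their promoters. In RefSeq promoters (GRCh38.p14), the 250 bases before the annotated start were searched on both strands for GCGC, any base, TGCGC. It was found in 10 of 41 promoters of the members called lower (24.4%), in 14 of 63 of all tested members (22.2%), in 10.4% of promoters of all tested genes with a promoter in the table and in 5.53% of all promoters in the table. Among the ribosomal protein genes called lower the share was 4 of 39 (10.3%). A match is a description of these letters and shows no binding. The windows below, chosen after the values were seen, show 1 match in capitals with up to 35 bases on each side (ATP5ME, UQCR11 and NDUFA3 have 2 matches each in the 250 bases, and the second of UQCR11 stands in lower case in its window), 5′ to 3′ on the strand of the gene, for UQCRFS1, the iron-sulfur protein of complex III (chr19:29213152-29213217, minus strand), ATP5ME, a membrane subunit of the ATP synthase (chr4:674406-674485, minus strand), UQCR11, a small subunit of complex III (chr19:1605463-1605507, minus strand), and NDUFA3, a complex I subunit (chr19:54102747-54102826, plus strand).
UQCRFS1: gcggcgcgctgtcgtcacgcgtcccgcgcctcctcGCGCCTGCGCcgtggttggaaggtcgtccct
ATP5ME: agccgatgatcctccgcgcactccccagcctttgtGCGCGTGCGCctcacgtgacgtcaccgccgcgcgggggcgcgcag
UQCR11: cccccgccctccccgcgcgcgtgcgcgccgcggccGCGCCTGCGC
NDUFA3: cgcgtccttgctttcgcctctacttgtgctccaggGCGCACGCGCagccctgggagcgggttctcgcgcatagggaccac
The gene of the first window, UQCRFS1, was at 121, 133 and 115 CPM in the controls and at 72.4, 73.2 and 83.3 CPM at 10 µM, so the groups did not overlap. Its transcript of 3475 bases is longer than most of the list, and its log2 fold change was -0.69 before and -0.74 after the length and GC correction. ATP5ME fell from 42.6 ± 20.7 to 19.5 ± 2.62 CPM, UQCR11 from 24.2 ± 2.31 to 17.1 ± 0.700 CPM and NDUFA3 from 13.9 ± 3.87 to 8.37 ± 0.647 CPM, but NDUFA3 lost its call after the correction (adjusted p 0.070, edgeR's quasi-likelihood test) and without 0 µM replicate 1, 0 µM replicate 2 or 10 µM replicate 1.

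Genes for cytosolic ribosomal proteins were lower as well. Of 80 tested members, 46 were called lower and 0 higher, with a median log2 fold change of -0.57. After the correction 29 were lower. Both subunits took part, with 27 of 47 genes of the large subunit (median -0.52) and 19 of 33 of the small subunit (median -0.68). RPS23, a protein of the decoding centre, was at 686, 918 and 555 CPM in the controls and at 333, 319 and 331 CPM at 10 µM. All 3 treated libraries lay below every control and below every trace library (381 to 614 CPM), and the log2 fold change was -1.13 ± 0.20 (SE, edgeR adjusted p 0.0037). RPS6, a target of S6 kinase, was at 2061, 1974 and 1889 CPM in the controls and 1285, 1333 and 1334 CPM at 10 µM. For RPS6 the trace libraries, at 1228 to 1750 CPM, lay below every control, and 8 of 9 were nearer to 10 µM. Ribosomal protein genes have many processed pseudogenes, and how reads shared with them were counted is not given in the sources used here.

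The mitochondrial ribosome, which translates the mitochondrial genome, was lower in 41 of 78 tested genes and higher in 0, with a median of -0.43 (34 lower and 2 higher after the correction). Its large subunit had 29 of 49 genes lower and its small subunit 12 of 29. MRPL20, of the large subunit, was at 126, 123 and 102 CPM in the controls and at 73.0, 78.5 and 72.0 CPM at 10 µM. Its trace libraries ran from 66.0 to 97.3 CPM, all below the lowest control. MRPL54 fell from 15.6 ± 2.49 to 6.98 ± 0.785 CPM, a log2 fold change of -1.15.

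Of 36 proteasome genes tested, 17 were lower and 0 higher, with a median of -0.37 (14 lower after the correction). The calls were in 12 of 16 genes of the 20S core, the proteolytic barrel, and in 5 of 20 genes of the regulatory particle that recognizes and unfolds substrates. PSMB4, a subunit of the core, was at 232, 218 and 190 CPM in the controls and at 141, 143 and 155 CPM at 10 µM, with no overlap. Its trace libraries ran from 132 to 207 CPM, and 7 of 9 were nearer to 10 µM. Host genes of small nucleolar RNAs, which share the growth-dependent 5′ start of ribosomal protein genes, were lower in 9 of 19 and higher in 1, with a median of -0.52 (6 lower and 1 higher after the correction). SNHG16 was at 214, 182 and 175 CPM in the controls and at 110, 106 and 105 CPM at 10 µM, while the trace libraries ran from 113 to 210 CPM, all above the 10 µM libraries and with 0.1 µM replicate 3 and 1 µM replicate 3 inside the range of the controls.

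In each of these 5 classes at least 6 of the 9 trace libraries were nearer to 10 µM, and at least 1 lay inside the range of the controls. The list level is the mean log2 CPM of tested members in a library, relative to the mean of the controls. For the respiratory chain it was -0.23 to 0.13 in the controls, -0.61 to -0.51 at 10 µM and -0.60 to -0.09 in the trace libraries, 6 of which were nearer to 10 µM. For the cytosolic ribosome the trace libraries ran from -0.60, below all 10 µM libraries, to -0.09, and 7 of 9 were nearer to 10 µM, for the mitochondrial ribosome 8, and for the proteasome and the host genes 6 each. In each of the 5, 0.1 µM replicate 3 was on the side of the controls. Pooled trace doses against 0 µM gave 21 calls among respiratory chain genes, 21 among cytosolic and 24 among mitochondrial ribosomal protein genes and 7 in the proteasome, with 0 in the opposite direction in each of these 4 lists, beside 3.86% of all genes called lower. The counts at 10 µM rested on 4 libraries. Without replicate 1 or 2 of the controls or replicate 1 or 2 of 10 µM the lower calls were 21, 27, 21 and 26 for the respiratory chain. In the same order they were 18, 26, 20 and 25 for the cytosolic ribosome, 18, 25, 19 and 28 for the mitochondrial ribosome, 4, 9, 3 and 6 for the proteasome and 6, 5, 5 and 6 for the host genes.

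**Figure D3:**
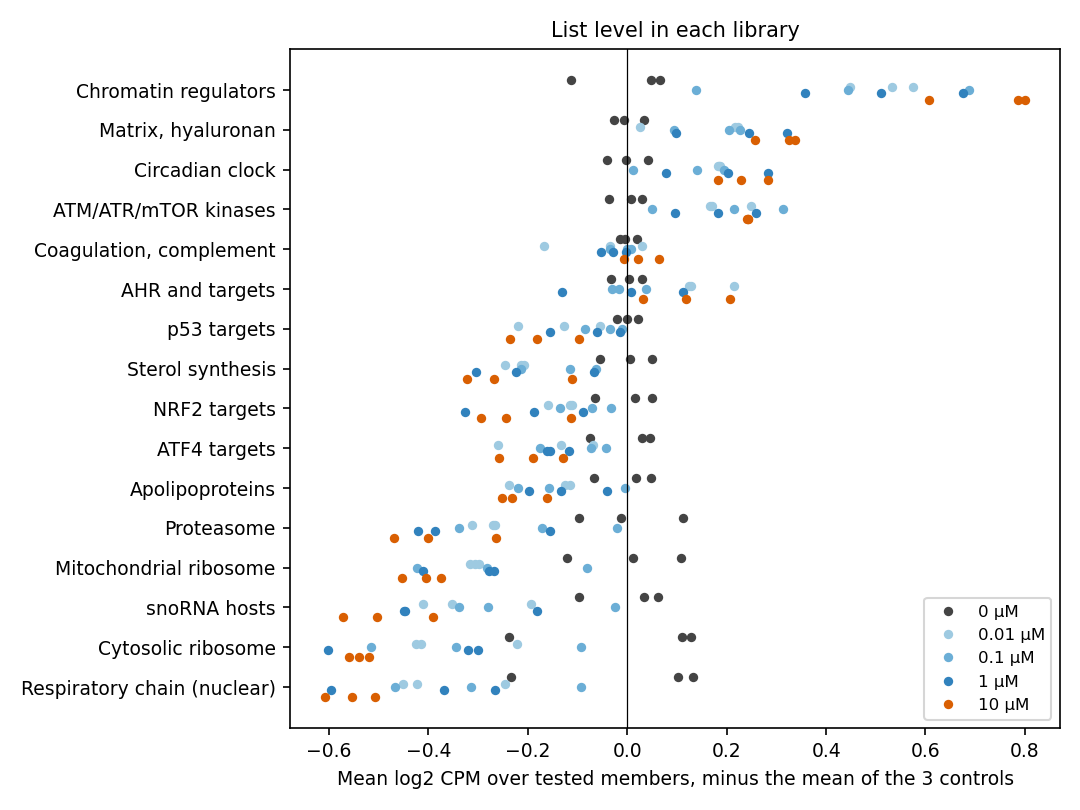
Level of 16 gene lists in each of the 15 libraries at 0, 0.01, 0.1, 1 and 10 µM, as the mean log2 CPM of tested members minus the mean of the 3 controls. Respiratory chain genes lie between -0.61 and -0.51 at 10 µM and chromatin regulators between 0.61 and 0.80, with most trace libraries in between.

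Large chromatin regulators and coactivators were higher at 10 µM. These proteins modify histones, remodel nucleosomes or link transcription factors to RNA polymerase, and the members of this list were picked for their long transcripts, with a median of 9311 bases. Of 37 tested members, 32 were called higher (86.5%) and 0 lower, with a median log2 fold change of 0.76. Among all tested genes with a transcript over 8000 bases the share called higher was 42.8%. After the correction for length and GC content 32 were still called higher and 0 lower. ASH1L, a histone methyltransferase, was at 18.7, 23.9 and 23.4 CPM in the controls and at 49.6, 51.8 and 43.7 CPM at 10 µM. All 3 treated libraries lay above every control, a log2 fold change of 1.14 ± 0.17 (SE, edgeR adjusted p 0.0036), or 0.80 after the correction. ARID2, which targets the PBAF remodelling complex, was at 17.2, 19.5 and 20.2 CPM in the controls and 44.4, 41.1 and 34.7 CPM at 10 µM, with all trace libraries (22.7 to 36.8 CPM) above the controls.

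Further members, EP300 and TET2, were chosen after their values were seen. The histone acetyltransferase EP300 rose from 60.2 ± 9.21 to 132 ± 19.4 CPM and the DNA demethylase TET2 from 8.97 ± 0.960 to 19 ± 1.71 CPM. Among the 5 members that did not pass were SMARCA4 (log2 fold change 0.08), CHD4 (0.20) and KMT2B (0.49), so the list was not uniform. Outside the list, MED1, a Mediator subunit, was at 45.7, 51.3 and 47.6 CPM in the controls and 99.3, 101 and 91.6 CPM at 10 µM, and its trace libraries, at 59.4 to 98.8 CPM, were all above the controls. Between the pooled trace doses and 0 µM 26 of the 37 list members were called higher, beside 4.95% of all genes. The list level was -0.11 to 0.07 in the controls, 0.61 to 0.80 at 10 µM and 0.14 to 0.69 in the trace libraries, 7 of which were nearer to 10 µM. The 2 others were 0.1 µM replicate 3 and 1 µM replicate 1. Against the pooled trace doses, 11 members were higher at 10 µM at an unadjusted p under 0.05 and 0 after adjustment.

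Genes of the extracellular matrix and of hyaluronan turnover were higher in 8 of 19 tested members and lower in 0 (8 higher and 1 lower after the correction), with a median of 0.18. CEMIP, which degrades hyaluronan, had the smallest p of the comparison. It was at 47.5, 55.7 and 51.1 CPM in the controls and at 90.7, 95.2 and 95.1 CPM at 10 µM, with no overlap, a log2 fold change of 0.87 ± 0.10 (SE, edgeR adjusted p 0.0020). Its trace libraries, at 68.0 to 90.6 CPM, were above every control and below every 10 µM library, and 8 of 9 were nearer to 10 µM. FN1, the gene of the adhesive plasma protein fibronectin, was at 2392, 2763 and 2503 CPM in the controls and at 4705, 4685 and 4297 CPM at 10 µM. Its trace libraries lay between 2947 and 4430 CPM, above every control. LAMC1, the gamma chain of laminins, rose from 162 ± 7.32 to 232 ± 2.68 CPM, while the secreted protease inhibitor TIMP1 did not pass, with a log2 fold change of -0.30.

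Of 18 tested circadian clock genes, 6 were higher and 2 lower, with a median of 0.31 (5 higher and 0 lower after the correction). CLOCK, which pairs with BMAL1 to drive the cycle, was at 14.7, 15.7 and 16.6 CPM in the controls and at 29.6, 26.3 and 24.1 CPM at 10 µM. Its trace libraries, at 17.1 to 29.8 CPM, all lay above the controls. The repressor PER2 rose from 10.7 ± 1.18 to 15.7 ± 1.01 CPM and BMAL1 from 6.15 ± 0.896 to 8.09 ± 0.787 CPM, whereas DBP, an output factor of the clock, fell from 3.58 ± 0.218 to 2.44 ± 0.189 CPM and NFIL3, its repressing counterpart, from 39.9 ± 2.17 to 32.9 ± 2.16 CPM. BMAL1, DBP and NFIL3 were chosen after their values were seen, and each lost its call in at least 4 of the 6 fits that left out a library, those without 0 µM replicate 1 or 2 or 10 µM replicate 1 or 2 among them. Of 9 trace libraries 7 had a clock list level nearer to 10 µM. The 6 higher calls became 3, 3, 2 and 4 without replicate 1 or 2 of the controls or replicate 1 or 2 of 10 µM, and 4 without 10 µM replicate 3. PER2 lost its call without 0 µM replicate 1.

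Kinases of the ATM, ATR and mTOR pathways are known to be inhibited by caffeine at millimolar concentrations. Of 21 tested genes of these pathways, 5 were higher (23.8%) and 1 lower (4.76%), with a median of 0.31 and a median transcript of 6408 bases. After the correction 3 were higher and 1 lower. Of all genes 11.3% were higher and 10.7% lower, and after the correction 10.3% and 9.96%. MTOR, the kinase that couples nutrients to growth, was at 149, 166 and 148 CPM in the controls and 217, 216 and 227 CPM at 10 µM. The groups did not overlap and the log2 fold change was 0.51 ± 0.12 (SE, adjusted p 0.0078), but after the correction it was 0.19 (adjusted p 0.12, both edgeR's quasi-likelihood test). SMG1, the kinase of nonsense-mediated decay, rose from 107 ± 5.12 to 196 ± 7.71 CPM. For both genes 7 of 9 trace libraries were nearer to 10 µM. The 5 higher calls became 3 without replicate 1 or 2 of the controls or replicate 1 or 2 of 10 µM.

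Liver-specific genes were lower in part. Of 15 defining hepatocyte genes, 4 were lower (26.7%) and 1 higher (6.67%), beside 10.7% and 11.3% of all genes. The median was -0.18, and the counts were the same after the correction. AFP, the fetal albumin that HepG2 cells secrete, was at 3779, 3315 and 3396 CPM in the controls and at 2082, 2135 and 2272 CPM at 10 µM. Its log2 fold change was -0.69 ± 0.10 (SE, edgeR adjusted p 0.0036), and the trace libraries lay between the groups without touching either, at 2386 to 3013 CPM, with 5 of 9 nearer to 10 µM. ALB, the gene of albumin, did not pass, with 5874 ± 678 CPM at 0 µM and 5190 ± 539 CPM at 10 µM.

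Among 20 apolipoprotein and lipoprotein assembly genes 5 were lower and 2 higher, with a median of -0.26 (3 lower and 2 higher after the correction). APOA1, the main protein of high density lipoprotein, was at 2090, 1680 and 1448 CPM in the controls and at 765, 874 and 1071 CPM at 10 µM. The groups did not overlap, and the trace libraries ran from 752 CPM to 1624 CPM, which lies within the range of the controls. APOB, the scaffold of low density lipoprotein, has a transcript of 14121 bases and was at 5089, 5222 and 5258 CPM in the controls and 8758, 9274 and 8751 CPM at 10 µM. All 9 trace libraries of APOB were above the controls, at 6309 to 11770 CPM. After the correction APOA1 had a log2 fold change of -0.67 and APOB of 0.41, and both were still called. The 5 lower apolipoprotein calls became 2, 2, 2, 3 and 3 when replicates 1 and 2 of the controls and replicates 1, 2 and 3 of 10 µM were each left out alone, in this order. The 4 lower hepatocyte calls became 2 without 0 µM replicate 1, 0 µM replicate 2 or 10 µM replicate 1.

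Genes of cholesterol synthesis were lower in 7 of 23 tested members and higher in 1, with a median of -0.26 (5 lower and 1 higher after the correction). The members called lower were enzymes of the pathway, such as MVK, which phosphorylates mevalonate, and EBP, a sterol isomerase. MVK was at 59.8, 64.9 and 57.1 CPM in the controls and at 38.1, 40.8 and 46.7 CPM at 10 µM, and its trace libraries, at 36.1 to 54.0 CPM, were all below the controls. EBP fell from 99.1 ± 11.4 to 63.7 ± 7.16 CPM. For the list level 6 of 9 trace libraries were nearer to 10 µM. Without replicate 1 or 2 of the controls or replicate 1 or 2 of 10 µM the lower calls were 4, 4, 3 and 4.

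Targets of p53, the transcription factor of the DNA damage response, were lower in part. Of 27 tested members, 8 were lower and 0 higher at 10 µM (6 lower and 1 higher after the correction), with a median of -0.09. At the pooled trace doses 4 were lower, with a median of 0.02. The list level was -0.02 to 0.02 in the controls and -0.24 to -0.10 at 10 µM, and 3 of 9 trace libraries were nearer to 10 µM. PHLDA3, an inhibitor of Akt signalling, was at 66.2, 68.8 and 60.3 CPM in the controls, 36.0, 41.6 and 44.3 CPM at 10 µM and 44.5 to 60.7 CPM at the trace doses. CDKN1A, the cell cycle inhibitor p21, was at 195, 208 and 188 CPM in the controls and 143, 151 and 172 CPM at 10 µM, with no overlap. For CDKN1A the trace libraries ran from 155 to 195 CPM, and 4 of 9 were nearer to 10 µM. A difference between 10 µM and the pooled trace doses was not called for either gene (unadjusted p 0.0098 for PHLDA3 and 0.014 for CDKN1A, edgeR's quasi-likelihood test). The 8 lower calls became 3 without 0 µM replicate 1 and 4 without 10 µM replicate 1, and CDKN1A lost its call without 10 µM replicate 1.

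Other stress responses were also lower in part. ATF4 targets, which supply amino acids under stress, had 6 of 20 genes lower and 0 higher (median -0.17, with 6 lower and 1 higher after the correction), and NRF2 targets of the antioxidant response had 5 of 17 lower and 0 higher (median -0.23, with 6 lower and 0 higher after the correction). For each list 6 of 9 trace libraries were nearer to 10 µM. FTL, the light chain of the iron store ferritin, was at 7880, 7968 and 7059 CPM in the controls and 4649, 5034 and 4870 CPM at 10 µM, and its trace libraries (4950 to 6684 CPM) all lay below the controls. Of 24 chaperones and folding factors of the endoplasmic reticulum, 4 were lower (16.7%) and 3 higher (12.5%), beside 10.7% and 11.3% of all genes. After the correction 6 were lower and 1 higher, and the 3 higher calls became 0 without 0 µM replicate 1 and 1 without 10 µM replicate 1 or 10 µM replicate 2. XBP1, a transcription factor of the unfolded protein response, fell from 352 ± 7.79 to 252 ± 20.5 CPM, and SDF2L1, a chaperone cofactor, from 50.6 ± 9.08 to 23.9 ± 3.58 CPM. HSPA5, the main chaperone of the compartment, did not pass (log2 fold change -0.09). Without replicate 1 or 2 of the controls or replicate 1 or 2 of 10 µM the ATF4 calls were 3, 2, 1 and 3 and the NRF2 calls 1, 2, 1 and 2.

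Caffeine acts directly on adenosine signalling. Of 12 tested genes for adenosine receptors and adenosine handling, 1 was higher and 3 lower, with a median of -0.09, beside 22.0% of all genes called in either direction. After the correction 3 were higher and 0 lower, with a median of -0.01, and ADORA2B, ADA and ADK had lost their calls. The receptor gene ADORA2B was at 23.1, 23.8 and 20.3 CPM in the controls and at 17.0, 17.5 and 19.97 CPM at 10 µM, groups that lay close to each other without overlap. The trace libraries of ADORA2B, at 16.3 to 21.1 CPM, reached both groups. ADA, which deaminates adenosine, fell from 11.4 ± 0.614 to 8.62 ± 0.758 CPM, and ADK, which phosphorylates it, from 93.8 ± 10.2 to 65.0 ± 6.07 CPM. DPP4, a peptidase that anchors adenosine deaminase at the cell surface, was at 292, 275 and 317 CPM in the controls and 405, 397 and 362 CPM at 10 µM, and 7 of 9 trace libraries were nearer to 10 µM. The lower calls of ADORA2B, ADA and ADK depended on single libraries: the 3 calls became 0 without 0 µM replicate 1, 10 µM replicate 1 or 10 µM replicate 2 and 1 without 0 µM replicate 2 or 0 µM replicate 3. The receptor genes ADORA1, with 2 to 13 counts per library, and ADORA3, with 0 to 2, were too low to be tested. ADORA2A was not called (log2 fold change 0.06, adjusted p 0.97 in edgeR), had 12 to 281 counts per library and shares its locus with a readthrough gene. The readthrough gene, SPECC1L-ADORA2A, was called higher, with a log2 fold change of 2.41, and lost its call without replicate 1 or 2 of the controls. How reads shared by these genes were counted is not given in the sources used here.

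Of 11 tested phosphodiesterase genes, 2 were higher (18.2%) and 0 lower, with a median of 0.20 (1 higher and 0 lower after the correction). Of all genes 11.3% were higher, and 10.3% after the correction. The list level was -0.11 to 0.13 in the controls and 0.12 to 0.17 at 10 µM, so the groups overlapped. PDE8A, which breaks down cyclic AMP, was at 42.7, 45.0 and 48.7 CPM in the controls and 60.5, 60.3 and 56.1 CPM at 10 µM, with 5 of 9 trace libraries nearer to 10 µM. PDE11A was at 8.63, 7.86 and 9.03 CPM in the controls and 11.6, 12.3 and 13.8 CPM at 10 µM, and its call was lost after the correction (adjusted p 0.10, edgeR's quasi-likelihood test) and in 4 of the 6 fits that left out a library, those without replicate 1 or 2 of the controls or replicate 2 or 3 of 10 µM. Of 13 genes induced by cyclic AMP, 1 was higher and 1 lower (7.69% each), below the shares of all genes. The median was -0.00, close to that of all genes (1 higher and 0 lower after the correction). The lower one was CREM, a transcription factor gene of cyclic AMP signalling, from 24.2 ± 0.530 to 19.8 ± 0.538 CPM. Its call was lost in each of the 6 fits that left out a library. The higher one was PPARGC1A, a coactivator of gluconeogenic genes, from 7.36 ± 0.578 to 11.2 ± 1.64 CPM. It lost its call without 0 µM replicate 1, 10 µM replicate 1 or 10 µM replicate 2.

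CYP1A1, the AHR target whose product oxidizes many planar aromatic compounds, was at 45.6, 45.5 and 42.7 CPM in the controls and at 69.3, 64.5 and 62.1 CPM at 10 µM. The groups did not overlap, and the log2 fold change was 0.55 ± 0.11 (SE, edgeR adjusted p 0.0043), 0.57 after the correction. The trace libraries scattered around the level of the controls, at 33.7 to 59.7 CPM with a median of 46.3 CPM, a wider range than that of the controls. Only 1 µM replicate 3 was nearer to 10 µM, and the difference between 10 µM and the pooled trace doses was 0.51 on the log2 scale (unadjusted p 1.2e-05, adjusted p 0.21, edgeR's quasi-likelihood test). Reads shared with its paralog CYP1A2 cannot be told apart in these counts, and CYP1A2 had 3 to 14 counts in the libraries at 0 to 10 µM. The core of the response element of AHR, GCGTG on either strand, lies 57 bases before the start of CYP1A1 in the RefSeq promoter (GRCh38.p14, chr15:74725546-74725620, minus strand). The window is shown, with these letters in capitals, because all 3 libraries at 10 µM lay above all 9 trace libraries for this gene.
CYP1A1: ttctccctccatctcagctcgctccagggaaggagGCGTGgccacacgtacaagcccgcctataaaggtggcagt
These 5 letters are frequent, in 44.7% of the promoters of tested genes and 31.9% of all promoters in the table. The match is a description of letters and shows no binding, and its part in the level of CYP1A1 was not tested. Of 10 tested genes of the AHR response, 3 were higher and 1 lower, before and after the correction, with a median of 0.08. Of all genes 11.3% were higher and 10.7% lower, and after the correction 10.3% and 9.96%. The list members called higher were CYP1A1, AHR and its partner ARNT (log2 fold change 0.5). NQO1, another target on the list, was the lower one (log2 fold change -0.36), opposite to CYP1A1. Of the trace libraries, 4 of 9 had a list level nearer to 10 µM. AHR itself was at 47.0, 45.5 and 54.8 CPM in the controls and 67.7, 69.7 and 64.9 CPM at 10 µM. Its trace libraries ran from 46.5 to 80.7 CPM and 8 of 9 were nearer to 10 µM. Without 0 µM replicate 1 or 10 µM replicate 1 the 3 higher calls became 1, and without 0 µM replicate 2 or 10 µM replicate 2 they became 2. In each of these 4 fits the calls of AHR and NQO1 were lost and that of CYP1A1 was kept.

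Over the 3839 genes called at 10 µM, 7 to 9 of the 9 trace libraries were nearer to 10 µM for 1612 genes (42.0%), 3 to 6 for 2141 (55.8%) and 0 to 2 for 86 (2.24%). These genes were chosen by their difference from the controls that the trace doses share, which draws other libraries away from the controls, so the shares are a description. For 22 genes whose 10 µM and control libraries did not overlap, as those of 45.8% of all tested genes did not, at most 1 trace library was nearer to 10 µM, and CYP1A1 had the smallest p against the trace doses among them. These were chosen after their values were seen. CYP24A1, the enzyme that inactivates vitamin D, was at 34.1, 33.3 and 35.4 CPM in the controls, 32.5 to 39.5 CPM at the trace doses and 44.6, 43.0 and 40.7 CPM at 10 µM. All 3 treated libraries of CYP24A1 lay above all 12 others. BMF, a pro-apoptotic member of the BCL2 family, was at 5.22, 5.28 and 5.74 CPM in the controls, 4.97 to 6.71 CPM at the trace doses and 6.92, 7.66 and 6.28 CPM at 10 µM, and the last of these overlapped the trace range. BMF lost its call after the correction and without replicate 1 or 2 of the controls or replicate 1 or 2 of 10 µM. The levels of these 3 genes went on upward at the higher doses, where the means at 100 and 1000 µM were 138 and 623 CPM for CYP1A1, 52.2 and 148 CPM for CYP24A1, and 11 and 48.6 CPM for BMF. ACER3, a ceramidase of the endoplasmic reticulum and Golgi, was lower at 10 µM (17.6, 15.7 and 16.6 CPM in the controls, 12.6, 13.6 and 14.2 CPM at 10 µM), and all 9 of its trace libraries, at 15.4 to 18.7 CPM, were nearer to the controls. ACER3 lost its call without replicate 1 or 3 of the controls or replicate 1 or 2 of 10 µM.

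**Figure D4:**
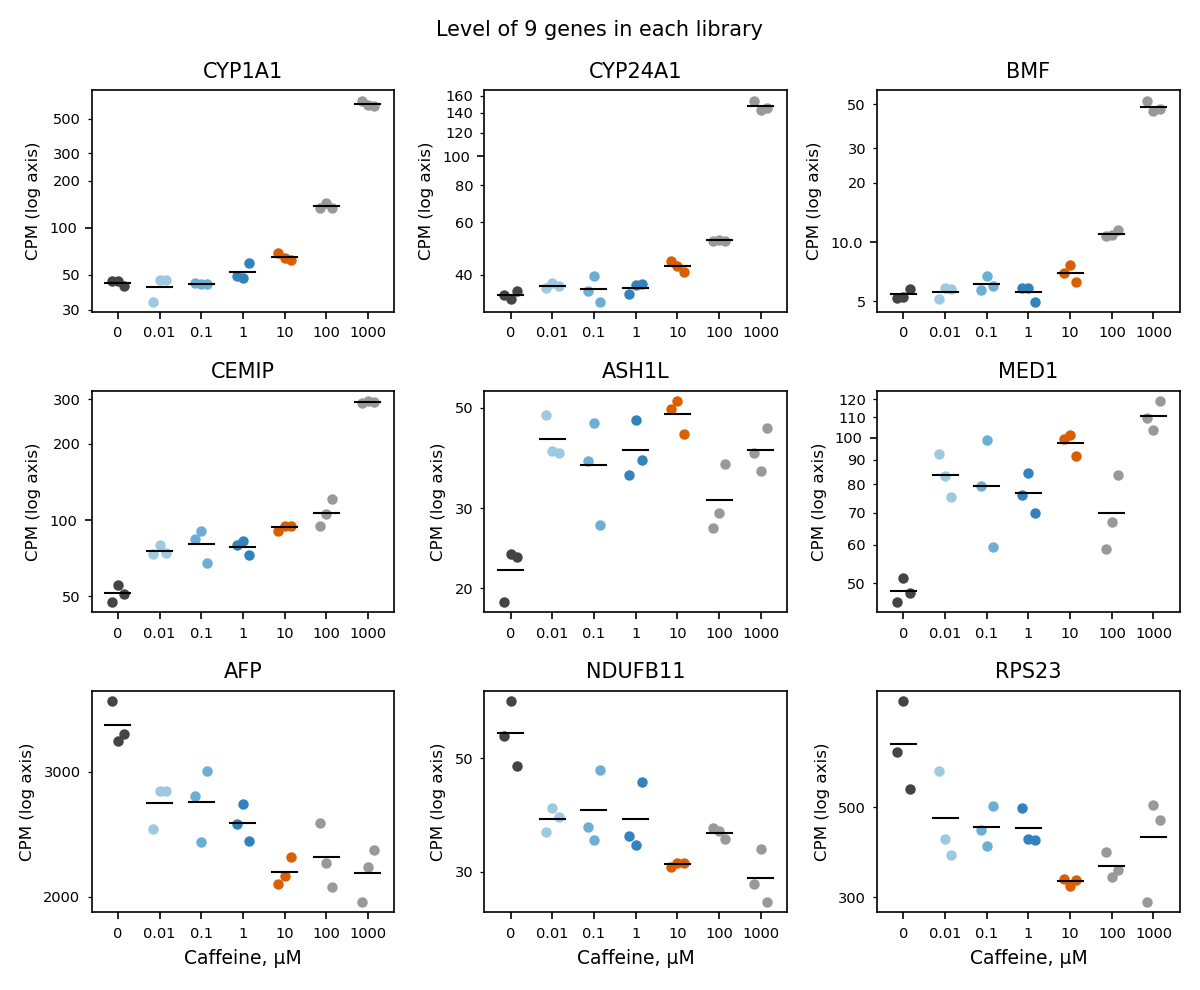
Level of 9 genes in each of the 21 libraries in CPM on a log axis, against caffeine in µM, with a bar at the mean of the 3 libraries. For CYP1A1, CYP24A1 and BMF most trace libraries lie nearer to the controls than to 10 µM, whereas for CEMIP, ASH1L, MED1, AFP, NDUFB11 and RPS23 most trace libraries lie between the controls and 10 µM.

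Of 67 gene lists with at least 3 tested members, 44 met the rule for lists, and only part of them are described. Among the rest, core spliceosome genes were lower in 8 of 35 and higher in 4 (8 and 3 after the correction), and translation factors were lower in 8 of 37 and higher in 3 (10 and 2 after it). Kinesins and dyneins were higher in 12 of 50 and lower in 4 (7 and 4 after the correction). Leaving out a library gave 6 to 10 lower calls for the spliceosome, 1 (without replicate 1 of either group) to 9 for translation factors, and 1 (without 0 µM replicate 1) to 10 higher calls for kinesins and dyneins. In 33 of the 44 lists the levels at 10 µM did not overlap those of the controls, which the choice of lists by their calls favours. The trace libraries were unlike one another in these 33 lists, since 0.1 µM replicate 3 was nearer to the controls in 29 and 1 µM replicate 1 in 17.

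Some of the genes with the largest fold changes, such as ZACN and ASDURF, varied widely between libraries of a dose. ZACN, a zinc-activated ion channel gene, had 1481, 1048 and 525 counts in the controls and 4, 4 and 6 at 10 µM. At the trace doses it had 1 to 7 counts in 7 libraries, 593 in 0.1 µM replicate 3 and 403 in 1 µM replicate 1, the pair of trace libraries that lay most often with the controls. ASDURF, a short reading frame upstream of ASNSD1, had 1, 44 and 115 counts in the controls and 909, 478 and 335 at 10 µM, and its call was lost without 0 µM replicate 1, 0 µM replicate 2 or 10 µM replicate 1. RSC1A1 was at 7.89, 8.88 and 10.2 CPM in the controls and 34.9, 34.4 and 25 CPM at 10 µM, but it lies within another gene of the same strand, so its counts are uncertain. Of the genes described above, NDUFC1, UQCR11, MRPL20, SNHG16, ASH1L, EP300, PHLDA3, ADK, PDE11A and AHR also share part of their span with a same-strand gene in GENCODE v29. A further group overlaps a gene of the opposite strand only, among them LYZ, ATP5ME, NDUFA3, ADA, DBP, CREM, NDUFB11, ATP5PD, UQCRFS1, RPS23, RPS6, CEMIP, CLOCK, PER2, MTOR, SMG1, APOA1, APOB, MVK, CDKN1A, DPP4, BMF, ACER3 and ZACN. Their counts are uncertain to the extent that strand or shared reads were not resolved.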

How the data were processed

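RNA of 21 HepG2 cultures was counted per gene by the authors, and the deposited table holds whole-number counts that are not normalized, per the file headers and values. HISAT2, DESeq2 and GRCh38 are named in the submitters' processing notes without a role. The counting program, annotation and strand setting are not given in the sources used here. Of 42 columns, 21 matched a sample and were used, and 21 matched none. The table has 37637 features, of which 32937 are Ensembl genes, 24852 of these with a symbol, and 4700 are unannotated (1617 of them tested).

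From these counts, edgeR 4.0.16 (R 4.3.3) fitted 17468 genes that passed its filter at a minimum count of 10, with TMM scaling and all 21 libraries in 1 quasi-likelihood model (14 residual degrees of freedom). Calls use a Benjamini-Hochberg adjusted p under 0.05, with p-values adjusted over all tested genes. CPM are counts scaled to library size, and log2 CPM has a prior count of 2. A trace library counts as nearer to 10 µM when its log2 CPM is closer to the mean at 10 µM than to that of the controls. Transcript lengths came from GENCODE v29 for 15694 genes (89.8%). The correction for length and GC content, chosen after seeing the data, fits a smooth to each library and enters it as an offset. The fit was tested on simulated data. The alternatives were DESeq2 1.42.0, other scalings, filters and thresholds, a replicate block, a fit on the compared groups alone and leaving out each library.

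The members and the 68 gene lists were chosen with earlier results of these data known. Genes named were, among those called at 10 µM without overlap with the controls, up to 6 in each direction with the largest fold change (at least 5 CPM) and up to 6 with the smallest p (at least 20 CPM). To these were added up to 4 members of each list with the smallest p, defining members of lists, the adenosine receptors, AHR and CYP1A1. Other genes are said to be chosen after their values were seen, or are named because they did not pass. A list met the rule for description when at least 5 members were tested and the share called in 1 direction is over 1.5 times that of all genes, or when it holds caffeine targets. Results for a few genes and for part of these lists are not reported here.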

Additional observations from a re-analysis of the deposited data

How the results depend on the processing

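The 3839 calls at 10 µM against 0 µM stayed within 1.5 times under DESeq2 (4296), other scalings, filters, the compared groups alone (5325) and the length and GC correction (3540). A threshold of 0.01 left 1255, and an added fold limit of 1 on the log2 scale left 528. Leaving out a library gave 1260 to 3707. Pooled trace doses against 0 µM (1538) depended more on the processing: DESeq2 called 2506, the length and GC correction 795, the compared groups alone 0 (3818 at an unadjusted p under 0.05), a threshold of 0.01 gave 0 and the fold limit 95. Leaving out a library gave 0 to 2686. With library totals in place of TMM its calls split into 899 higher and 342 lower, against 864 and 674. For 10 µM against the pooled trace doses (0), DESeq2 called 9, no filter on low counts 2 and the length and GC correction 1, and leaving out a library gave 0 to 1. Causes were not tested. Of 252 called genes that were checked one by one, 62 lost their call under the length and GC correction, 107 without 0 µM replicate 1 and 104 without 10 µM replicate 1, and 0 changed sign. The fold change of ADORA2A, 0.06 on the log2 scale and not called, was -0.44 without 0 µM replicate 3 and ran from -0.70 (without 10 µM replicate 1) to 0.49 (without 10 µM replicate 3). Same-numbered libraries of 10 µM and 0 µM had correlations of -0.115, 0.0199 and -0.108 in their deviations from the group means, and none correlated best with its own number. Correlations this low show no pairing by number between these groups and cannot exclude it. With a replicate block 3298, 852 and 0 genes were called in the 3 comparisons. Counts limit CYP1A2, ADORA1 and ADORA3, which are too low here to show a difference.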

Other observations

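Genes of mitosis and the spindle were called in both directions at 10 µM, with 6 of 40 tested members higher and 10 lower. Of all genes 11.3% were higher and 10.7% lower, so the higher share of the list was close to that of all genes. After the length and GC correction 8 members were higher and 8 lower. The median log2 fold change of the list was 0.03. Its list level was -0.05 to 0.05 in the controls and -0.03 to 0.02 at 10 µM, so the groups overlapped. MKI67, which coats mitotic chromosomes, was at 261, 297 and 299 CPM in the controls and 665, 696 and 493 CPM at 10 µM, with trace libraries at 339 to 601 CPM, all above the controls. CENPE, a kinetochore motor, was at 35.8, 31.5 and 33.9 CPM in the controls and 63.7, 57.2 and 55.2 CPM at 10 µM. BIRC5, the gene of survivin in the chromosomal passenger complex, was at 183, 184 and 154 CPM in the controls and 89.1, 102 and 118 CPM at 10 µM. Its transcript has 2630 bases, and that of MKI67 has 12678. Within the replicative polymerase epsilon, the catalytic subunit gene POLE rose from 74.0 to 109 CPM on average and the small subunit gene POLE4 fell from 50.7 to 27.8 CPM. These 5 genes kept their calls in each fit that left out 1 of the 6 libraries. The lower calls of the mitosis list became 3 without replicate 1 or 2 of the controls or replicate 1 or 2 of 10 µM, and its higher calls became 4 in the same fits.

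HIF1A, the oxygen-regulated transcription factor, was at 95.4, 99.6 and 113 CPM in the controls and 193, 184 and 140 CPM at 10 µM, and it was the single gene called higher in the hypoxia list, which has 18 tested members including HIF1A, of which 3 were lower (3 higher and 4 lower after the length and GC correction). ANKRD37, a target induced under low oxygen, was at 3.18, 2.96 and 2.01 CPM in the controls and 1.12, 1.30 and 1.37 CPM at 10 µM, and ADM, the gene of the vasodilator adrenomedullin, was at 17.1, 16.8 and 19.4 CPM and at 11, 12.9 and 11.6 CPM. For ANKRD37 and ADM 4 of 9 trace libraries were nearer to 10 µM, and for HIF1A 5 of 9. Among 31 coagulation and complement genes 7 were higher (22.6%) and 0 lower, before and after the correction. Of all genes 11.3% were higher and 10.7% lower. The median of the list was -0.06, opposite in sign to the calls. Its list level was -0.02 to 0.02 in the controls and -0.01 to 0.06 at 10 µM, so the groups overlapped. Only 1 of 9 trace libraries had a list level nearer to 10 µM. F5, coagulation factor V, was at 106, 107 and 111 CPM in the controls and 253, 234 and 176 CPM at 10 µM, and C3, the central complement protein, at 1308, 1403 and 1329 CPM and at 2083, 2002 and 1788 CPM. The 7 calls became 2 without 0 µM replicate 1 and 4 without replicate 2 or 3 of the controls or replicate 1 or 2 of 10 µM. HIF1A overlaps a gene on each strand in GENCODE v29 and ANKRD37 another on the opposite strand, which leaves both counts uncertain.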
